A study of Mus musculus with 16 samples.

Results

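The 42 genes described here encode the contractile lattice of muscle and were chosen by name, from a list of thick filament, thin filament, Z-disc, M-band and assembly genes with their cardiac, atrial and skeletal isoforms. They were matched by RefSeq accession to 66 probes of an array with 56605 probes, and all 42 were among the 13725 genes tested. Expression was measured on 1-colour Agilent arrays in RNA from the heart apex of 16 male C57Bl/6 mice, with 1 array per mouse and 4 mice in each of 4 groups. AKT1 KO mice were homozygous AKT1 flox/flox, AKT2 KO mice were homozygous AKT2 flox/flox, and AKT1+AKT2 DKO mice were homozygous for both floxed genes. Control mice carried no floxed allele. Mice of all 4 groups, controls included, were heterozygous for MHC-mercremer, a tamoxifen-dependent Cre recombinase driven by the promoter of the α-myosin heavy chain gene and so active in cardiomyocytes. They all received 500 µg hydroxytamoxifen per day in 5 injections at an age of 3 months, and the apex was collected at 21 days. Sample titles carry the word untreated beside a label that names tamoxifen. Because the deletion is restricted to cardiomyocytes, the other cells of the apex keep both genes, and in a bulk sample fewer cells of a type and less RNA per cell cannot be told apart.

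The sarcomere is the unit of contraction of striated muscle. Myosin thick filaments, anchored at the M-band and spanned by titin, slide along actin thin filaments that carry the tropomyosin and troponin calcium switch and are anchored at the Z-disc. The Z-disc also holds proteins that sense stretch and are recruited to damaged or growing myofibrils. The heart uses cardiac isoforms for most of these proteins, and atrial, fetal and skeletal isoforms are present at lower levels. AKT1 and AKT2 are kinases downstream of the insulin and growth factor receptors with established roles in the growth of heart muscle.

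Levels are log2 intensities, after background subtraction, relative to the 75th percentile of the same array, so 0 is the level of that percentile and a step of 1 is a doubling. One probe, the brightest, stands for a gene unless another is named, and levels of different probes are not compared. Differences were tested with limma over all 13725 genes, and a gene is called when its Benjamini-Hochberg adjusted p is below 0.05. Each of the 42 genes passed the filter on dim probes, being detected well above background in every mouse of some group, and no probe of theirs was saturated on any array. Mybphl passed only through the AKT1 KO arrays. Between 24400 and 30565 probes per array lay well above background. The Akt2 probe averaged 2.54 ± 0.09 in AKT2 KO hearts and 2.91 ± 0.10 in DKO hearts, against 4.91 ± 0.06 in control hearts (SD, n = 4 each). The brightest Akt1 probe averaged 5.23 ± 0.26 in AKT1 KO hearts and 5.11 ± 0.08 in DKO hearts, against 5.13 ± 0.03 in control hearts (SD, n = 4 each). Where that probe lies relative to the floxed exons was not known, so it does not check the Akt1 deletion. Each group lay in its own column of the slides, so column and group cannot be told apart. On the first principal component of all genes DKO replicate 3 scored 78.6, away from the other 3 DKO arrays at 42.5 to 47.8.

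Promoters were taken from RefSeq on build GRCm38.p6, where 33 of the 42 genes matched 43 promoter windows of 300 bases. The 250 bases before the annotated start are shown for 3 genes that the results turn on. They are the skeletal actin gene Acta1 and the cardiac actin gene Actc1, which both fell in DKO hearts, and Xirp2, which had the largest rise. Capitals mark a CArG box in Acta1 and Actc1 (the DNA element bound by serum response factor), an M-CAT element (CATTCC, bound by TEAD factors) and a TATA box (TATAAA) in Acta1, and a MEF2 box in Xirp2 (the element bound by MEF2 factors). The windows are Acta1 at chr8:123894776-123895025 on the minus strand, Actc1 at chr2:114052876-114053125 on the minus strand, and Xirp2 at chr2:67445752-67446001 on the plus strand.
Acta1: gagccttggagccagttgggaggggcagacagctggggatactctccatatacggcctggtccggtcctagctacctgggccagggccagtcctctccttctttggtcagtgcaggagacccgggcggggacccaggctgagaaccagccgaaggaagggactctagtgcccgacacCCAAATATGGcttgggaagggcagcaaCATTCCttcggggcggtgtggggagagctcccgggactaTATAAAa
Actc1: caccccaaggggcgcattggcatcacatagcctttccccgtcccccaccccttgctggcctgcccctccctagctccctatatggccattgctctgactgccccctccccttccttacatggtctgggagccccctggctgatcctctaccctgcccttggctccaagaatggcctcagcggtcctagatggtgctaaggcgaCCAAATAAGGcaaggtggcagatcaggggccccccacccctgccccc
Xirp2: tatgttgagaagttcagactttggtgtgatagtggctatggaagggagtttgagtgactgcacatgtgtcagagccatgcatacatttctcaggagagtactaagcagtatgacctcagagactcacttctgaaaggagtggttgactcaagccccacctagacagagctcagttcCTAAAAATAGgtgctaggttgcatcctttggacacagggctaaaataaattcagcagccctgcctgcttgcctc
Both strands were searched, and matches were counted per window over the full 300 bases. A CArG box was found in 8 of the 43 windows (18.6%) and in 1.63% of all 32851 promoter windows. Of the 22 windows of genes that fell in DKO hearts 6 held one, and of the 9 windows of genes that rose 0 did. The 6 belong to Myl3, Actc1, Acta1, Nebl and Ldb3, whose overlapping windows share the same box. After quantile normalization Myl3 and Actc1 were no longer called (limma adjusted p = 0.0805 and 0.179). Acta1 was not called without DKO replicate 3 (limma adjusted p = 0.0616). The direction of these genes was kept. Another probe of Ldb3 changed by 0.10 and was not called. Nebl stayed called in both settings. Windows of Myl7 and Myom1, which were not called in DKO hearts, also held a CArG box. These counts were not compared by a test. The M-CAT element was found in 30.2% of the windows of these genes and in 14.7% of all windows. For the MEF2 box the shares were 9.3% and 0.557%, and the windows that held it belonged to Ttn, Mybpc3, Myoz2 and Xirp2. The FoxO element GTAAACA was in 0% of the windows of these genes and in 3.65% of all windows. These matches describe letters in the sequence, and windows of 1 gene can overlap.

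In control hearts the probes of the ventricular light chains were bright, Myl3 at 9.52 ± 0.10 and Myl2 at 9.33 ± 0.12 (SD, n = 4), and 10 of the 42 genes had a probe among the 100 brightest signals. Probe brightness depends on the probe as well as on the amount of RNA. Among the dim probes, the atrial light chain Myl7 lay at -3.22 ± 0.42 and the nebulin gene Neb at -3.32 ± 0.41 in control hearts (SD, n = 4). The median SD of the 42 genes was 0.208 in AKT1 KO hearts, 0.142 in AKT2 KO hearts and 0.22 in DKO hearts, against 0.098 in control hearts. Over all genes it was 0.162 in AKT1 KO hearts, 0.114 in AKT2 KO hearts and 0.248 in DKO hearts, against 0.09 in control hearts, so the median spread of all genes was also lowest in control hearts.

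The first question was what loss of both kinases did to the sarcomere genes. In DKO hearts 6 of 12 Z-disc genes rose, with Xirp2, Xirp1 and Flnc up by the most, and both actins, 5 of 8 troponins and 3 of 5 myosin light chains fell. In total 25 of the 42 genes were called (59.5%), 8 higher and 17 lower, beside 45.6% of all genes tested (24.4% higher and 21.2% lower). The share called higher, 19%, was below that of all genes, and the share called lower, 40.5%, was above it. The 4 DKO arrays did not overlap the 4 control arrays for 25 genes, 9 above and 16 below, beside 44.4% of all genes (23.8% above and 20.6% below). The median log2 change of the 42 genes was -0.20, and that of all genes was 0.02. Actc1, Tnnt2, Tpm1, Myl2 and Myl3 were no longer called after quantile normalization, and Acta1 was not called without DKO replicate 3.

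**Figure D1:**
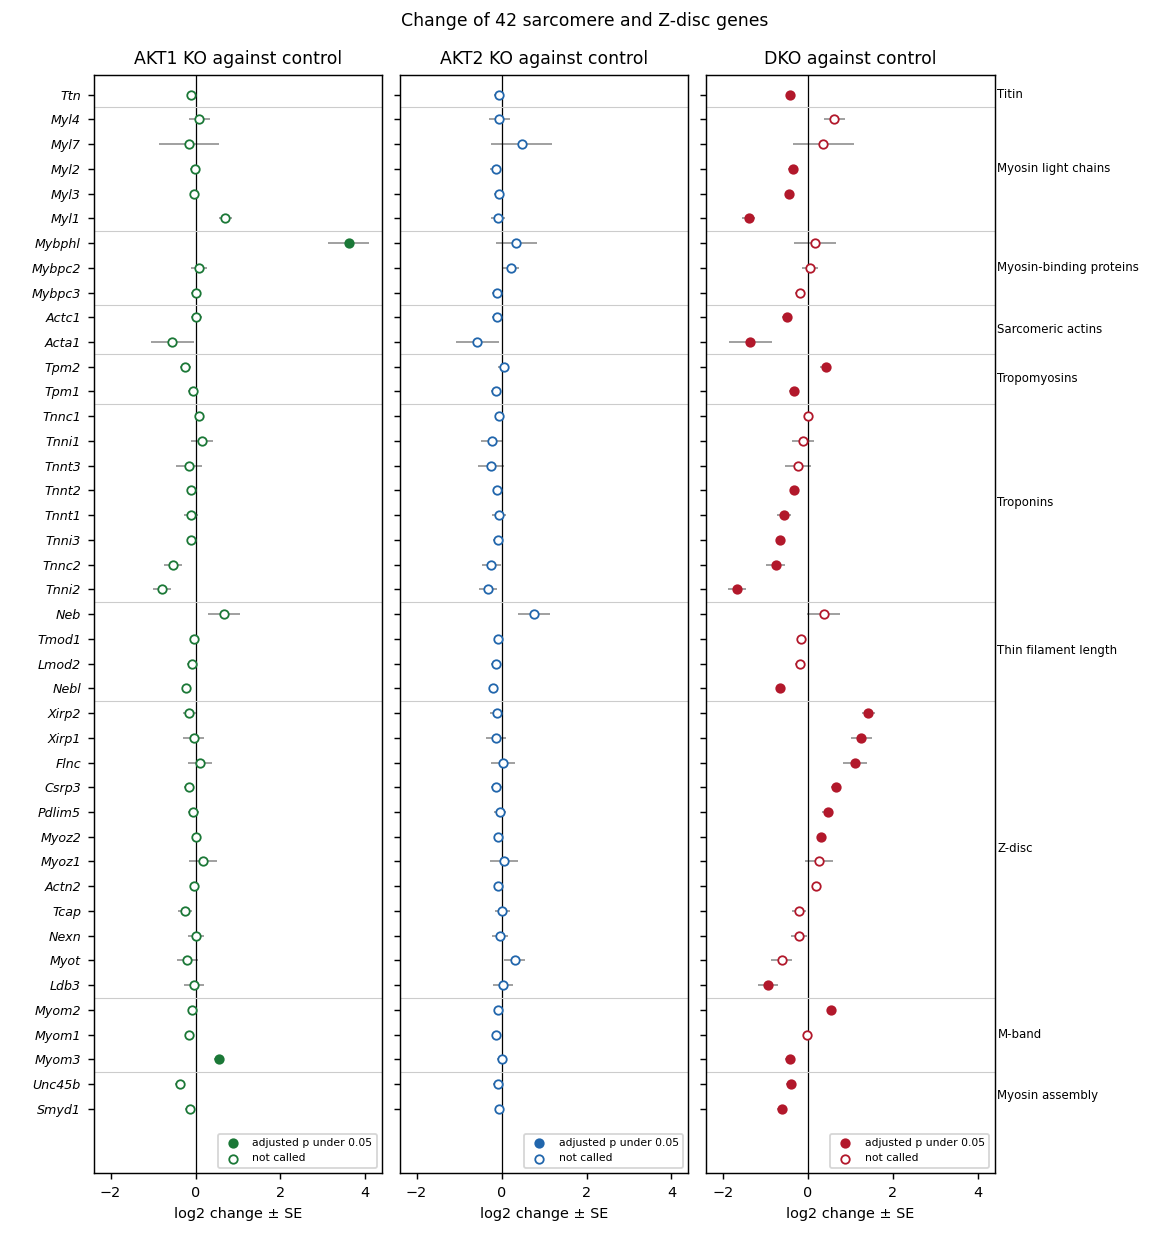
Log2 change of the 42 genes in AKT1 KO, AKT2 KO and DKO hearts against control hearts, with the gene down the page grouped by its place in the sarcomere. Points are limma estimates with SE bars (4 arrays a group), filled where the adjusted p is under 0.05; 2 genes are filled for AKT1 KO, 0 for AKT2 KO and 25 for DKO.

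Among the Z-disc genes, Xirp2 and Xirp1 encode the Xin repeat proteins, which bind actin and gather at the intercalated disc and at sites of myofibril damage. Xirp2 lay at 3.91, 4.50, 4.76 and 4.27 in DKO hearts, against 2.75, 3.03, 2.85 and 3.08 in control hearts. The groups were clear of each other, and the rise was 1.43 ± 0.15 on the log2 scale, or 2.70-fold (SE, adjusted p = 3.76e-06). Xirp1 lay at 3.54, 3.85, 5.21 and 4.19 in DKO hearts, against 2.85, 3.07, 2.81 and 3.00 in control hearts. All DKO arrays were above all control arrays, and the rise was 1.26 ± 0.25 (SE, adjusted p = 0.000764). Xirp1 ranged between 2.72 and 2.97 in AKT1 KO hearts and between 2.76 and 2.88 in AKT2 KO hearts. Xirp2 ranged between 2.69 and 2.94 in AKT1 KO hearts and between 2.59 and 2.96 in AKT2 KO hearts, so neither single knockout reached the DKO level.

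Flnc encodes filamin C, the muscle actin crosslinker that is a partner of the Xin proteins. It lay at 5.31, 5.53, 7.08 and 5.51 in DKO hearts, against 4.91, 4.81, 4.67 and 4.57 in control hearts. DKO replicate 3 was far above the other DKO arrays, which still exceeded every control array. The rise was 1.12 ± 0.28 (SE, adjusted p = 0.00476), and 0.71 without that array (adjusted p = 0.000116). Without the same array the rise of Xirp1 was 0.93 (adjusted p = 3.58e-05) and that of Xirp2 was 1.30 (adjusted p = 3.49e-06).

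Csrp3 encodes muscle LIM protein, a Z-disc protein whose loss causes dilated cardiomyopathy in mice. Its values were 7.57, 7.73, 8.28 and 7.91 in DKO hearts, against 7.25, 7.20, 7.14 and 7.27 in control hearts. No array overlapped, and Csrp3 rose by 0.66 ± 0.12 (SE, adjusted p = 0.000491). Pdlim5, a PDZ and LIM domain protein of the Z-disc, lay at 5.36, 5.29, 5.95 and 5.31 in DKO hearts, against 5.00, 5.00, 4.98 and 5.07 in control hearts. It rose by 0.47 ± 0.13 (SE, adjusted p = 0.0105), again with DKO replicate 3 highest, and by 0.31 without that array (adjusted p = 0.0128). Myoz2 encodes calsarcin-1, a cardiac Z-disc protein that binds calcineurin. It lay at 6.98, 6.95, 6.79 and 7.21 in DKO hearts, against 6.66, 6.64, 6.63 and 6.71 in control hearts, a rise of 0.32 ± 0.09 (SE, adjusted p = 0.0119).

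The Z-disc gene that fell, on its brightest probe, was Ldb3, which encodes the PDZ and LIM protein known as Cypher or ZASP. It lay at 4.54, 4.36, 3.17 and 4.44 in DKO hearts, against 5.06, 5.02, 5.09 and 5.08 in control hearts. Every DKO array was below every control array, with replicate 3 lowest. The change was -0.93 ± 0.23 (SE, adjusted p = 0.00407) and -0.62 without DKO replicate 3 (adjusted p = 0.000438). Another probe of Ldb3 changed by 0.10 and was not called, as given further on. The other 5 Z-disc genes were not called in DKO hearts. Actn2, the α-actinin that crosslinks actin there, averaged 8.76 ± 0.14 in DKO hearts and 8.56 ± 0.03 in control hearts (SD, n = 4 each, adjusted p = 0.0931). After quantile normalization its change was 0.52, with an adjusted p of 2.09e-05. A second Actn2 probe to the same transcript rose by 0.57 (adjusted p = 0.000723), so the brightest probe alone does not show Actn2 unchanged. Myot, which encodes myotilin, averaged 1.98 ± 0.63 in DKO hearts and 2.60 ± 0.04 in control hearts (SD, n = 4 each, adjusted p = 0.0546). For Tcap (telethonin, the cap of titin), Nexn (the actin-binding protein nexilin) and Myoz1 (the skeletal calsarcin) the log2 differences between DKO and control hearts were -0.20, -0.21 and 0.26. Each sign turned in some setting: the difference was 0.12 for Tcap after quantile normalization, and 0.07 for Nexn and -0.12 for Myoz1 without DKO replicate 3.

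**Figure D2:**
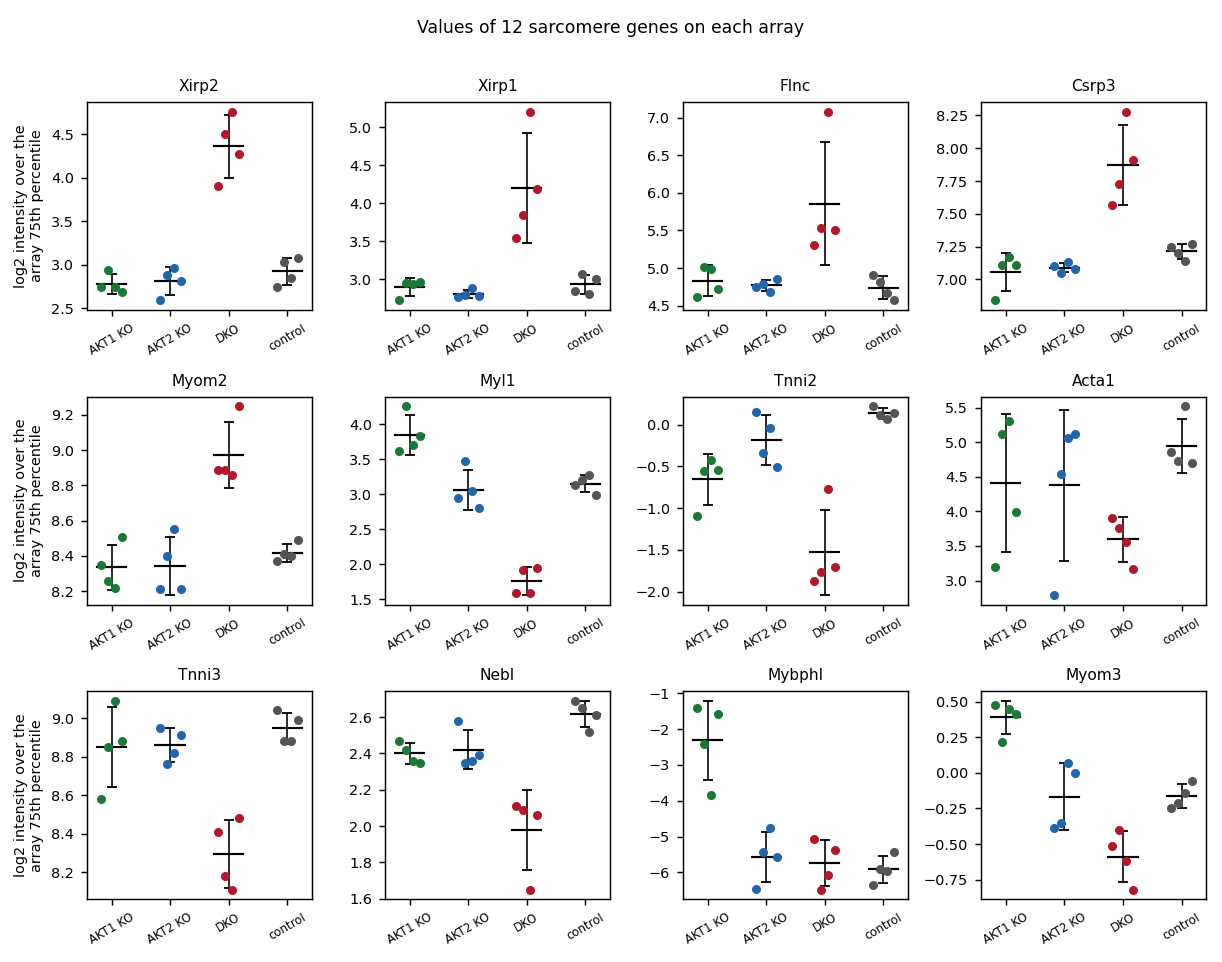
Log2 intensity over the 75th percentile of the array (vertical axis, scaled per gene) for 12 genes in AKT1 KO, AKT2 KO, DKO and control hearts. Each point is 1 array, and the bars are the mean and SD of 4 arrays. Xirp2, Xirp1, Flnc, Csrp3 and Myom2 were higher and Myl1, Tnni2, Acta1, Tnni3 and Nebl lower on the DKO arrays than on the control arrays, and Mybphl was high on the AKT1 KO arrays.

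On the thin filament both sarcomeric actins fell in DKO hearts. Acta1, the skeletal α-actin that the fetal heart also expresses, lay at 3.91, 3.76, 3.55 and 3.16 in DKO hearts, against 4.85, 4.72, 5.52 and 4.70 in control hearts. These groups did not overlap, and Acta1 fell by 1.35 ± 0.50 on the log2 scale (SE, adjusted p = 0.0398). The single knockouts were spread widely, at 3.19, 5.12, 5.31 and 3.99 in AKT1 KO hearts and at 2.79, 4.54, 5.06 and 5.12 in AKT2 KO hearts. The Acta1 call was lost in 11 of 34 other settings, among them the fit without DKO replicate 3 (adjusted p = 0.0616), though the direction held in all 34. Actc1, the cardiac α-actin, lay at 8.49, 8.61, 8.24 and 8.79 in DKO hearts, against 9.12, 8.90, 8.97 and 9.10 in control hearts. It fell by 0.49 ± 0.12 (SE, adjusted p = 0.00423), and after quantile normalization its change was -0.20 (adjusted p = 0.179).

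The troponin complex sets the response of the thin filament to calcium. Of its 8 genes 5 fell in DKO hearts and 0 rose. Tnni2, the fast skeletal inhibitory subunit, lay at -1.87, -1.77, -0.77 and -1.71 in DKO hearts, against 0.22, 0.11, 0.07 and 0.14 in control hearts. It fell by 1.66 ± 0.22, the largest fall among the 42 genes (SE, adjusted p = 3.22e-05). Tnni3, the cardiac inhibitory subunit, lay at 8.41, 8.18, 8.11 and 8.48 in DKO hearts, against 9.04, 8.88, 8.88 and 8.99 in control hearts. Its change of -0.65 ± 0.11 (SE, adjusted p = 0.000226) stood beside -0.65 on a second probe, and the groups did not overlap.

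The fast skeletal calcium sensor Tnnc2 lay at -2.99, -3.16, -2.65 and -2.99 in DKO hearts, against -2.29, -2.0, -2.34 and -2.16 in control hearts. It fell by 0.75 ± 0.22 (SE, adjusted p = 0.0109), with no overlap. Its cardiac partner Tnnc1 lay at 6.98, 6.87, 7.10 and 7.07 in DKO hearts, against 7.02, 7.02, 6.98 and 6.98 in control hearts. The difference for Tnnc1 was 0.01 ± 0.08 (SE, adjusted p = 0.966), and the groups overlapped. The slow skeletal tropomyosin-binding subunit Tnnt1 lay at 2.15, 2.61, 2.95 and 2.72 in DKO hearts, against 3.20, 3.14, 3.17 and 3.14 in control hearts. It fell by 0.55 ± 0.17 (SE, adjusted p = 0.0157). Cardiac Tnnt2 lay at 8.54, 8.44, 8.82 and 8.73 in DKO hearts, against 9.04, 8.79, 8.92 and 9.05 in control hearts. The groups overlapped, and Tnnt2 fell by 0.32 ± 0.11 (SE, adjusted p = 0.0248), a change that was -0.02 after quantile normalization (adjusted p = 0.8). The slow skeletal inhibitory subunit Tnni1 and the fast skeletal Tnnt3 were not called, with changes of -0.11 and -0.23. For Tnnt3 DKO replicate 3 lay at -0.94 and the other 3 DKO arrays between -2.80 and -2.29, and without replicate 3 its change was -0.64 (adjusted p = 0.00659).

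Tropomyosin is the coiled coil that covers the actin sites. Tpm1, the main cardiac tropomyosin gene, lay at 8.30, 8.25, 8.67 and 8.42 in DKO hearts, against 8.84, 8.61, 8.68 and 8.79 in control hearts. The groups overlapped, and Tpm1 fell by 0.32 ± 0.12 (SE, adjusted p = 0.036). That call was lost in 14 of 34 other settings, and the change was -0.04 after quantile normalization. The dimmer probes of Tpm1 changed by -0.13 (adjusted p = 0.49) and 0.40 (adjusted p = 0.313) and were not called. Tpm2, β-tropomyosin, lay at 2.46, 2.11, 2.03 and 2.25 in DKO hearts, against 1.92, 1.63, 1.78 and 1.83 in control hearts. It rose by 0.42 ± 0.13 on its brightest probe (SE, adjusted p = 0.0137), and a second probe moved the other way, as given further on.

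Of the 4 genes that set thin filament length, Nebl fell. It encodes nebulette, the cardiac relative of nebulin, and lay at 2.11, 2.09, 1.65 and 2.06 in DKO hearts, against 2.69, 2.65, 2.52 and 2.61 in control hearts. The fall was 0.64 ± 0.10 (SE, adjusted p = 0.000107), and it was called in all 34 other settings. Nebulin itself (Neb), leiomodin 2 (Lmod2, which elongates the filament at its pointed end) and tropomodulin 1 (Tmod1, which caps that end) were not called. The log2 difference between DKO and control hearts was 0.38 ± 0.38 for Neb, whose probe is dim, -0.19 ± 0.11 for Lmod2 and -0.15 ± 0.09 for Tmod1 (SE).

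In the thick filament 3 of 5 light chains fell, the skeletal Myl1 and the ventricular Myl3 and Myl2. Myl1, the skeletal essential light chain, lay at 1.59, 1.91, 1.58 and 1.95 in DKO hearts, against 3.13, 3.20, 3.28 and 2.99 in control hearts. It fell by 1.39 ± 0.16 (SE, adjusted p = 8.59e-06), and its other 2 probes changed by -1.28 and -1.43. Myl3, the ventricular essential light chain, lay at 9.04, 8.94, 9.09 and 9.27 in DKO hearts, against 9.61, 9.39, 9.48 and 9.59 in control hearts. The 4 DKO arrays were lowest, and Myl3 fell by 0.43 ± 0.11 (SE, adjusted p = 0.00376). Myl2, the ventricular regulatory light chain, lay at 8.92, 8.85, 9.03 and 9.15 in DKO hearts, against 9.46, 9.20, 9.27 and 9.41 in control hearts. It fell by 0.34 ± 0.12 (SE, adjusted p = 0.0301). After quantile normalization the change was -0.17 for Myl3 (adjusted p = 0.0805) and -0.10 for Myl2 (adjusted p = 0.149).

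The atrial light chains Myl4 and Myl7 were not called and varied between DKO mice. Myl4 lay at 1.98, 0.45, 1.49 and 0.65 in DKO hearts, against 0.43, 0.48, 0.52 and 0.65 in control hearts (adjusted p = 0.0537). Replicates 1 and 3 were above all control arrays, and the other two DKO arrays lay within the control range. Myl7 lay at -0.33, -2.86, -5.04 and -3.19 in DKO hearts, against -2.88, -2.92, -3.79 and -3.28 in control hearts (adjusted p = 0.707), so replicate 1 was the highest and replicate 3 the lowest of all 8.

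Titin, the spring that runs from Z-disc to M-band, was measured by 3 probes. The brightest lay at 6.47, 6.62, 6.39 and 6.53 in DKO hearts, against 6.84, 7.02, 6.85 and 6.92 in control hearts, and Ttn fell by 0.41 ± 0.10 (SE, adjusted p = 0.00514). The myosin-binding proteins were not called in DKO hearts. The log2 difference was -0.17 ± 0.12 for cardiac Mybpc3, which tunes cross-bridge cycling, and 0.06 ± 0.19 for fast skeletal Mybpc2 (SE). For Mybpc3 it was 0.14 after quantile normalization. Mybphl, myosin-binding protein H-like, was not well above background on any DKO or control array.

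At the M-band, which ties neighbouring thick filaments together, 1 myomesin gene rose, 1 fell and 1 was not called. Myom2, the M-protein gene, lay at 8.89, 8.89, 8.86 and 9.25 in DKO hearts, against 8.37, 8.41, 8.40 and 8.49 in control hearts. It rose by 0.56 ± 0.10 (SE, adjusted p = 0.000552). Myom3, a myomesin of slow and intermediate skeletal fibres, lay at -0.51, -0.40, -0.62 and -0.82 in DKO hearts, against -0.25, -0.21, -0.14 and -0.06 in control hearts. It fell by 0.42 ± 0.12 (SE, adjusted p = 0.00855), with no overlap. Myom1 lay at 5.78, 5.76, 5.88 and 5.87 in DKO hearts, against 5.85, 5.89, 5.78 and 5.87 in control hearts, and the difference of -0.03 ± 0.09 was not called (SE, adjusted p = 0.837).

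Both genes of myosin assembly fell. Smyd1, a muscle methyltransferase that works with the myosin chaperone, lay at 2.66, 2.49, 2.59 and 2.86 in DKO hearts, against 3.28, 3.14, 3.25 and 3.37 in control hearts. Its fall was 0.61 ± 0.12 (SE, adjusted p = 0.000584). Unc45b, that chaperone, lay at 5.24, 5.17, 4.79 and 5.26 in DKO hearts, against 5.53, 5.44, 5.54 and 5.54 in control hearts. It fell by 0.40 ± 0.11 (SE, adjusted p = 0.00747), and no DKO array reached the control arrays for either gene.

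All 25 called genes had the same direction on slide 1, on slide 2, without DKO replicate 3, after quantile normalization and in the authors' deposited values. Of the 25 calls 20 remained after quantile normalization, where 9 of the 42 genes (21.4%) were called higher and 13 (31%) lower, beside 23.7% and 21.9% of all genes. Also 20 remained in the authors' deposited values, where 9 (21.4%) were called higher and 12 (28.6%) lower, beside 23.7% and 21.8% of all genes. In both the calls of Myl2, Myl3, Actc1, Tnnt2 and Tpm1 were lost. The probes of these 5 are among the 100 with the brightest signals. The genes of those 100 probes in control hearts had a median change of -0.41 in DKO hearts, and those of them outside the 42 genes had a median of -0.42. The calls of Myl1, Tnni2, Csrp3, Nebl, Flnc, Xirp1 and Xirp2 were kept in all 34 other settings.

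**Figure D3:**
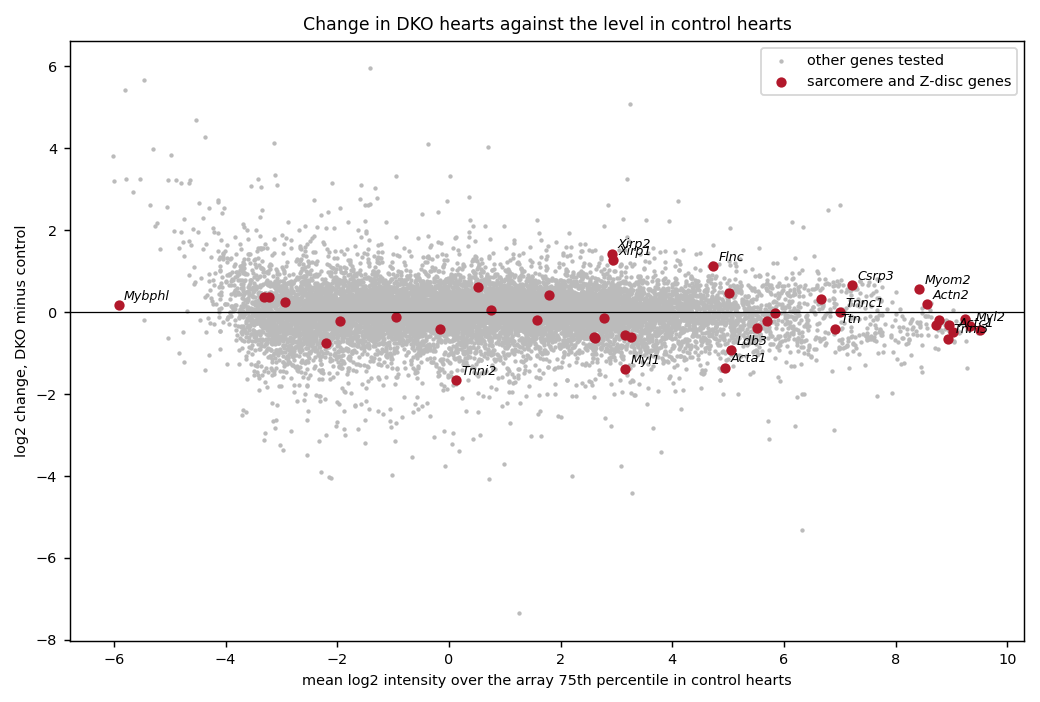
Log2 change in DKO against control hearts (vertical) by mean log2 level in control hearts (horizontal) for the 13725 genes tested, 1 point a gene from 4 arrays a group. The 42 sarcomere and Z-disc genes are in red. The 100 brightest genes had a median change of -0.41, and Myom2 and Actn2, which are among them, lie above 0.

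Markers of some other cell types moved in the same samples, where 24.4% of all genes were called higher and 21.2% lower. All 10 fibroblast markers rose in DKO hearts, and their summed level, in multiples of the 75th percentile of the array, was 312.4 to 451.2 in DKO hearts and 196.3 to 207.7 in control hearts. Of 14 ventricular cardiomyocyte markers outside the 42 genes 12 fell and 2 rose, with sums of 1805 to 2045 in DKO hearts and 2926 to 3313 in control hearts. Bright probes weigh most in these sums, Cox6a2 making 22.2% to 23.6% in control hearts, and the 100 brightest genes had a median change of -0.41. The less bright Ryr2 and Casq2 changed by -0.91 and -0.90, and Popdc2 and Corin were the ones that rose. Macrophage markers rose for 7 of 10. Among endothelial markers Vwf rose and Kdr fell, with sums of 131.9 to 161.8 in DKO hearts and 136.4 to 153.1 in control hearts. The blood cell markers tested were not called. Among adipocyte markers Cidec and Cfd, both dim, rose by 2.18 and 2.31, and Lep fell by 0.48. Cidec was not well above background on any control array, and Adipoq and Plin1 did not pass the filter on dim probes. Smooth muscle markers went both ways: Cnn1 and Tagln rose, and Acta2, Smtn and Actg2 fell. So did atrial markers, where Nppa, Dkk3, Nr2f2 and Pam rose and Kcnj3, Kcnj5 and Stard10 fell. Of 6 skeletal muscle markers tested 4 fell and 0 rose, but their sum was at least 91.1% Pgam2, the muscle phosphoglycerate mutase. Without Pgam2 the sum was 7.42 to 12.8 in DKO hearts and 16.7 to 18.3 in control hearts. The skeletal light chain Mylpf and parvalbumin (Pvalb) had differences of -0.01 and 0.05. The skeletal myosins Myh1, Myh2 and Myh4 and the skeletal actinin Actn3 did not pass the filter on dim probes. The part of these cell types in the changes of the sarcomere genes was not tested.

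Where 1 gene had several probes, they did not always change alike in DKO hearts. For 16 of the genes a brightest and another probe could be set against each other on the same array, in 20 pairs. The change differed between probes in 6 of the 20 pairs, beside 9.8% of all 5615 such pairs. In Pdlim5 the probe to NM_019809 rose by 0.47, and the probe to NM_001190852 by 1.62 ± 0.20. The probe to NM_001190852 lay at 1.02, 1.04, 2.18 and 1.06 in DKO hearts, against -0.37, -0.21, -0.21 and -0.40 in control hearts. The difference between these probes was -1.15 ± 0.12 (SE, adjusted p = 2.42e-05).

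In Ldb3 the probe to NM_001039076 fell, while the probe to NM_011918 lay at 4.95, 4.89, 3.93 and 4.87 in DKO hearts, against 4.54, 4.62, 4.52 and 4.55 in control hearts. On this probe 3 DKO arrays were above all control arrays and replicate 3 below them, and the change was 0.10 ± 0.17 (SE, adjusted p = 0.663). The difference between the Ldb3 probes was -1.03 ± 0.10 (SE, adjusted p = 2.23e-05). In Tpm2 the probe to NM_009416 lay at -1.45, -1.53, -1.93 and -1.05 in DKO hearts, against -0.69, -0.73, -0.64 and -0.64 in control hearts. It fell by 0.82 ± 0.16 (SE, adjusted p = 0.000918) where the brightest probe rose, and the difference was 1.24 ± 0.16 (SE, adjusted p = 0.000177). The other 3 pairs that differed were in Actn2, where a second probe to the same transcript rose by 0.57, in Smyd1, where it fell by 1.07, and in Ttn, where the probe to NM_028004 had a difference of 0.04. The position of each probe in its transcript was not known, so exons or isoforms cannot be named.

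**Figure D4:**
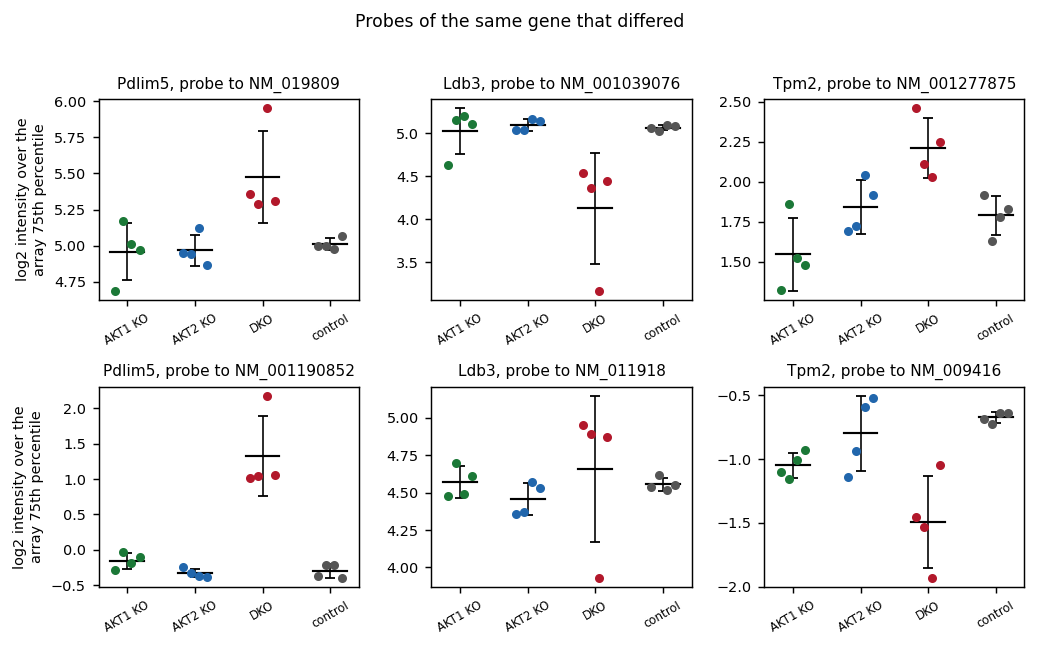
Log2 intensity over the 75th percentile of the array (vertical, scaled per panel) for 2 probes each of Pdlim5, Ldb3 and Tpm2 in AKT1 KO, AKT2 KO, DKO and control hearts. Points are arrays and bars are the mean and SD of 4 arrays. The Pdlim5 probes rose by 0.47 and 1.62, the Ldb3 probes differed by -0.93 and 0.10, and the Tpm2 probes by 0.42 and -0.82, in DKO against control hearts.

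Loss of AKT1 alone moved few of these genes. In AKT1 KO hearts 2 of the 42 were called, both higher, beside 0.794% of all genes (0.415% higher), and 7 had an unadjusted p under 0.05, beside 7.41% of all genes. Mybphl is 1 of the 2, and it entered the test only through the AKT1 KO arrays, where it was high, so 1 call, Myom3, remains without it. Mybphl, a relative of myosin-binding protein C that in mice is expressed in the atria and the conduction system, lay at -1.41, -2.41, -3.84 and -1.59 in AKT1 KO hearts. It was well above background on those 4 arrays and on 0 of the other 12, which lay between -6.48 and -4.76. Mybphl was at least 3.23-fold higher in AKT1 KO than in control hearts, measured against the lowest signal well above background. In the fit with no filter on dim probes, which did not select it, its adjusted p was 0.00683. On slide 1, with 2 arrays a group, it was not called.

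Among 10 atrial markers tested in AKT1 KO hearts 1 was called, the natriuretic peptide gene Nppa, higher by 1.47 ± 0.27 (SE, adjusted p = 0.0168). Without Nppa the other 9 atrial markers summed to 17.4 to 25.5 in AKT1 KO hearts and 17.9 to 19.1 in control hearts, which overlapped. The median change of the 10 was -0.06. The atrial markers Sln and Bmp10 were not tested because they did not pass the filter, and the atrial light chains Myl4 and Myl7 averaged 0.60 ± 0.05 and -3.37 ± 0.83 in AKT1 KO hearts, against 0.52 ± 0.09 and -3.22 ± 0.42 in control hearts (SD, n = 4 each). Whether atrial tissue took part in the rise of Mybphl was not tested.

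Myom3 lay at 0.48, 0.22, 0.45 and 0.41 in AKT1 KO hearts, against -0.25, -0.21, -0.14 and -0.06 in control hearts. It rose by 0.56 ± 0.12 (SE, adjusted p = 0.0379), with every AKT1 KO array above every control array. The call was lost in 14 of 34 other settings, 7 of them with 1 array left out, and the change stayed between 0.52 and 0.61. Myl1 lay at 3.62, 4.26, 3.70 and 3.83 in AKT1 KO hearts, against 3.13, 3.20, 3.28 and 2.99 in control hearts, a difference of 0.70 ± 0.16 that missed the threshold (SE, adjusted p = 0.057). Tnni2 lay at -1.10, -0.56, -0.42 and -0.54 in AKT1 KO hearts, below all 4 control arrays (difference -0.79 ± 0.22, SE, adjusted p = 0.176). The 4 AKT1 KO arrays did not overlap the control arrays for 7 of the 42 genes, Mybphl included, beside 9.19% of all genes. The median change of the 42 genes was -0.06, and that of all genes -0.03.

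Loss of AKT2 alone gave no call. In AKT2 KO hearts limma called 0 of the 42 genes, 0 had an unadjusted p under 0.05 and 0 were called in any of the 34 other settings. Of all genes 0.131% were called and 3.23% had an unadjusted p under 0.05. The spread behind these p-values was estimated over all 4 groups. The median SD of all genes was 0.248 in DKO hearts, 0.114 in AKT2 KO hearts and 0.09 in control hearts, so small changes in AKT2 KO hearts could be missed. The log2 changes lay between -0.57 for Acta1, whose arrays spread from 2.79 to 5.12, and 0.76 ± 0.38 (SE) for the dim probe of Neb. For the main cardiac isoforms the AKT2 KO means stood near those of control hearts. Myl2 averaged 9.19 ± 0.14 in AKT2 KO hearts and 9.33 ± 0.12 in control hearts, and Tnni3 averaged 8.86 ± 0.09 in AKT2 KO hearts and 8.95 ± 0.08 in control hearts (SD, n = 4 each). Actc1 averaged 8.91 ± 0.09 in AKT2 KO hearts and 9.02 ± 0.10 in control hearts (SD, n = 4 each). The 4 AKT2 KO arrays did not overlap the control arrays for 3 of the 42 genes, all below, beside 7.62% of all genes (5.11% below). Medians were -0.08 for the 42 genes and -0.02 for all genes.

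The knockouts were also set against each other. DKO hearts differed from AKT1 KO hearts in 21 of the 42 genes, 8 higher and 13 lower, beside 47% of all genes (26.7% higher and 20.3% lower). They differed from AKT2 KO hearts in 23, 10 higher and 13 lower, beside 42.1% of all genes (23.5% higher and 18.6% lower). Xirp2 was higher in DKO than in AKT1 KO hearts by 1.58 ± 0.15 (SE, adjusted p = 1.73e-06) and higher than in AKT2 KO hearts by 1.55 ± 0.15 (SE, adjusted p = 2.2e-06). These comparisons share the DKO arrays with the comparison against control. Myl1 was lower in DKO than in AKT1 KO hearts, at -2.09 ± 0.16 (SE, adjusted p = 2.23e-07). Mybphl was at least 3.54-fold lower in DKO than in AKT1 KO hearts, and 20 calls remain without it. Myot, not called against control hearts, was lower in DKO than in AKT2 KO hearts by 0.93 ± 0.25 on the log2 scale (SE, adjusted p = 0.00743).

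AKT2 KO hearts differed from AKT1 KO hearts in 3 genes, all lower, beside 0.896% of all genes (0.481% lower). These were Mybphl, at least 3.8-fold lower and tested only because it passed the filter in AKT1 KO hearts, Myl1, with a difference of -0.79 ± 0.16 (SE, adjusted p = 0.0266), and Myom3, with -0.56 ± 0.12 (SE, adjusted p = 0.0316).

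A last comparison asked whether the change in DKO hearts departed from the sum of the changes in the single knockouts on the log2 scale. It did for 12 of the 42 genes, 7 above the sum and 5 below, beside 26% of all genes (15.9% above and 10.1% below). Xirp2 was 1.70 ± 0.21 above it (SE, adjusted p = 7.7e-05), Xirp1 1.44 ± 0.35 (SE, adjusted p = 0.00751) and Csrp3 0.94 ± 0.17 (SE, adjusted p = 0.00131). Myom2, Tpm2, Pdlim5 and Myoz2 were also above the sum. Myl1 departed by -2.0 ± 0.22 (SE, adjusted p = 3.24e-05), where AKT1 KO and DKO hearts lay on opposite sides of control hearts. Myom3 did likewise, with a departure of -0.98 ± 0.16 (SE, adjusted p = 0.000755), and Tnni3 and Ldb3 were also below the sum. For Tpm2 and Ldb3 the side depended on the probe: their second probes departed by -0.32 and 0.19 and were not called. Mybphl is the other gene of the 12, and since it was not well above background in 3 of the 4 groups no size is given for it.

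Other genes of the sarcomere, from lists that hold none of the 42, were read beside them. Of 49 further sarcomere and Z-disc genes tested 19 rose and 11 fell in DKO hearts, beside 24.4% of all genes called higher and 21.2% lower. Ankrd1, a stretch-responsive titin-binding protein, rose by 2.19 ± 0.13 (SE, adjusted p = 2.76e-08) and Fhl1, a LIM protein bound to titin, by 2.71 ± 0.25 (SE, adjusted p = 1.41e-06). Sorbs2 (0.997) and Nrap (0.97), adaptor proteins of the Z-disc and the intercalated disc, rose too, while Fhl2, another LIM protein bound to titin, fell by 1.28. Myh7, the β-myosin heavy chain of the fetal heart, averaged 9.62 ± 0.24 in DKO hearts and 7.01 ± 0.18 in control hearts (SD, n = 4 each, adjusted p = 1e-04). Myh6, the adult α-chain, averaged 8.85 ± 0.14 in DKO hearts and 9.28 ± 0.10 in control hearts (SD, n = 4 each, adjusted p = 0.00703). Like Myl2 and Myl3, Myh6 is among the 100 brightest genes in control hearts, whose median change in DKO hearts was -0.41. The stress genes Nppa and Nppb rose by 2.49 and 2.07 in DKO hearts. In AKT1 KO hearts 2 of the 49 were called, Ankrd1 (0.72) and Pdlim3 (1.51), beside 0.794% of all genes. In AKT2 KO hearts 0 of the 49 were called, beside 0.131% of all genes.

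Of 31 regulators of sarcomere genes 3 rose and 7 fell in DKO hearts, beside 24.4% of all genes called higher and 21.2% lower. Abra, an activator of serum response factor signalling, rose by 1.13, while the splicing factor Rbfox1 changed by -1.19, Hopx, a cofactor that opposes serum response factor, by -0.94 and Mef2a by -0.34. Mamstr, a MEF2 coactivator whose gene is on chromosome 7 like Akt2, fell by 1.25 ± 0.09 in AKT2 KO hearts (SE, adjusted p = 6.59e-06) and by 1.24 ± 0.09 in DKO hearts (SE, adjusted p = 1.92e-07). Of 31 chaperones and turnover genes of the sarcomere 10 rose and 6 fell in DKO hearts, beside the same shares of all genes. In either single knockout 0 of the 31 were called, beside 0.794% of all genes for AKT1 KO and 0.131% for AKT2 KO. Klhl40, which stabilises thin filament proteins, rose by 1.40 and Hsp90aa1, the chaperone partner of Unc45b, by 0.85. The small heat shock protein gene Hspb3 fell by 1.28, Asb2, a ubiquitin ligase subunit that targets filamins, by 0.97 and the muscle calpain Capn3 by 1.78.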

How the data were processed

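Agilent Feature Extraction 12.0.3.1 wrote the scanner output, per the file headers: a background-subtracted intensity per spot. A table that the authors deposited holds log2 values, normalized between arrays and centred per probe, and was used as an alternative. No counts exist, so the number of arrays limits the precision.

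Values were log2 intensities less each array's own 75th percentile over 59305 spots, controls left out. A probe was kept if all 4 arrays of some group had it well above background, 53 probes with outlier flags were dropped, and the brightest of the 19340 kept probes with a symbol stood for each of 13725 genes. Groups came from the sample labels. One limma model (3.58.1, R 4.3.3, data.table package version 1.17.8) with 1 coefficient a group used all 16 arrays. It was tested on simulated data whose noise had the same spread in every group, so unequal spread between groups was not checked. The p-values were adjusted by Benjamini-Hochberg within each of the 7 comparisons. Lower bounds set dim arrays to their lowest signal well above background.

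Values are named for every gene called against control and for the adult partner of a called isoform, and of other lists up to 5 called genes with the smallest adjusted p, plus Myh6, Myh7, Nppa, Nppb and Ankrd1. Pdlim5, Ldb3 and Tpm2 probes, and Myl4, Myl7 and Myot values, were singled out after their values were seen. The genes, lists and promoter motifs were chosen with earlier results of these data known. Replicate numbers of AKT2 KO, DKO and control arrays coincide with slide and row in the file headers, and same-numbered arrays correlated at 0.14 to 0.365 in their deviations from the group means. Alternatives covered background correction, normalization, filters, probe choice, weights, prior, blocks, slides and single arrays.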

Additional observations from a re-analysis of the deposited data

Results flagged for a closer look

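In groups of 4 arrays, 14 of the 168 values per gene and group checked had 1 array far from the other 3 by Dixon's test. Chance gives about 1 in 20. DKO replicate 3 was that array in 6 cases and AKT1 KO replicate 1 in 4. In DKO replicate 3, Flnc lay at 7.08 (other DKO arrays 5.31 to 5.53), Pdlim5 at 5.95 (5.29 to 5.36), Ldb3 at 3.17 (4.36 to 4.54), Nebl at 1.65 (2.06 to 2.11), Tnni2 at -0.77 (-1.87 to -1.71) and Myoz1 at -1.53 (-3.13 to -2.98). In AKT1 KO replicate 1, Actn2 lay at 8.28 (other AKT1 KO arrays 8.59 to 8.65), Ldb3 at 4.63 (5.11 to 5.20), Myoz2 at 6.43 (6.73 to 6.79) and Xirp1 at 2.72 (2.94 to 2.97). AKT2 KO replicate 1 stood apart for Nebl at 2.58 (2.35 to 2.39) and Myot at 2.47 (3.03 to 3.11). DKO replicate 4 stood apart for Myom2 at 9.25 (8.86 to 8.89), and control replicate 2 for Unc45b at 5.44 (5.53 to 5.54).

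The effect of losing 1 kinase differed with the presence of the other in 11 genes, by the interaction term of limma, not counting Mybphl, which was well above background in AKT1 KO hearts alone. The departures from the sum of the single changes, on the log2 scale, were 1.70 for Xirp2, 1.44 for Xirp1, 0.94 for Csrp3, 0.71 for Myom2, 0.61 for Tpm2, 0.56 for Pdlim5 and 0.38 for Myoz2. They were -0.47 for Tnni3, -0.93 for Ldb3, -0.98 for Myom3 and -2.0 for Myl1. On the second probes of Tpm2 and Ldb3 the departures had the opposite sign, at -0.32 and 0.19.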

How the results depend on the processing

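Each comparison was refitted under 34 other settings (33 for the departure from additivity). Called sarcomere genes ranged, with 1 array left out, between 1 and 5 for AKT1 KO against control, 0 and 0 for AKT2 KO, 21 and 26 for DKO, 18 and 24 for DKO against AKT1 KO, 18 and 24 for DKO against AKT2 KO, 1 and 3 for AKT2 KO against AKT1 KO, and 8 and 14 for the departure from additivity. Against control, AKT1 KO had 5 calls without DKO replicate 3, and 1 without AKT1 KO replicate 1, 3 or 4 or without any 1 control array. AKT2 KO against AKT1 KO had 1 call without AKT1 KO replicate 4 or AKT2 KO replicate 1. For AKT1 KO against control, no filter gave 1, a filter on all 16 arrays 1, array weights 6, slide 1 alone 0, slide 2 alone 1 and leaving out row 2 of slide 2, added after seeing the data, 1. Slide 2 alone gave 9 calls for DKO against control, 8 against AKT1 KO and 7 against AKT2 KO, with 2 arrays a group. For AKT2 KO against AKT1 KO, no filter gave 1, array weights 5, only the groups compared 1, slide 1 alone 0, slide 2 alone 1 and leaving out row 2 of slide 2 gave 0. For the departure from additivity no filter gave 7, array weights 20 and slide 2 alone 4. The cause was not tested where fewer arrays or genes do not show it. With the replicate block the counts were 2 for AKT1 KO, 0 for AKT2 KO, 26 for DKO (25 shared with the fit without it), 22 for DKO against each single knockout, 2 for AKT2 KO against AKT1 KO and 10 for the departure. The block ended the call of Myom3 in AKT1 KO hearts, where same-numbered AKT1 KO and control arrays correlated at -0.217 to 0.379.

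Among called genes, directions turned in the other settings for Tpm2 and Ldb3, both with the choice of probe. No setting used the dimmest probe of Ttn or Tpm1 alone. Those probes changed by 0.04 and 0.40 in DKO against control hearts, opposite to the brightest probe, and were not called. The planned mean of the probes gave -0.20 for Tpm2 in DKO against control and -0.16 against AKT2 KO. The second probe, a setting added after seeing the data, gave for Tpm2 -0.82 against control, -0.44 against AKT1 KO, -0.69 against AKT2 KO and -0.32 for the departure. The second probe of Ldb3 gave 0.102, 0.089, 0.201 and 0.188 in the same order. Of the 17 genes not called in DKO hearts 3 turned after quantile normalization (Tcap, Mybpc3, Tnnc1) and 3 without DKO replicate 3 (Nexn, Myoz1, Tnnc1), and Myl7 was 1.30 on slide 1 and -0.57 on slide 2. Dim probes such as Neb, Myl7 and Mybphl limit what could be detected.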
